A study of Mus musculus with 8 samples.

Results

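The genes of G2 and mitosis examined here are 33 genes whose products act between the end of DNA replication and the division of the cell. They were followed in 8 single cells from the myocardium of the mouse heart tube at embryonic day 8.5, at 9 somites. All 33 gene symbols were found on the array, out of 24336 genes with a symbol, and each was read through the probe with the highest mean log2 signal over the 8 cells. Cells were dissociated with trypsin and picked 1 by 1, and the amplified cDNA of each was hybridised to its own one-colour array of 60-base probes. The comparison asked how myocardial cells differ when Sox17, a transcription factor gene of the endocardial precursors and endoderm, is deleted in the mesoderm.

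The 4 control cells (WT) came from embryos with the genotype Mesp1+/+ Sox17flox/flox, which carry floxed Sox17 alleles and no Cre. The 4 knockout cells (KO) came from Mesp1Cre/+ Sox17flox/flox embryos, in which Cre recombinase takes the place of 1 Mesp1 allele and is made in early mesoderm, so that the myocardium and its neighbours of mesodermal origin share the deletion. Both genotypes therefore carried floxed Sox17 on both alleles, and the KO cells differed in Mesp1 dose as well as in Cre. The labels name no embryo, litter or culture, so each genotype is 1 sample of cells: no test was made, and each SD is the spread between 4 cells. The WT arrays shared 1 slide and the KO arrays a different one, and the effect of slide and that of genotype cannot be told apart.

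The label of the cells was checked against fixed markers. All 12 myocardial markers (Tnnt2, Myl7, Nkx2-5 and others) were detected in all 8 cells, where detected means that the scanner software called the spot well above background. Of 12 endothelial markers, 2 to 3 were detected in each WT cell and 1 to 4 in each KO cell, with a summed log2 level of 10.07 to 10.28 in WT and 9.96 to 10.25 in KO. Kdr among them was detected in all 8 cells, at 443 to 693. Pecam1 was detected in 4 WT and 2 KO cells and Etv2 in 1 WT and 2 KO cells. Tie1 was detected in 1 WT cell and Flt1 in 1 KO cell, and these 4 markers stayed at the floor. Cdh5, Tek, Emcn, Nfatc1, Tal1, Esam and Sox18 were detected in 0 cells. Erythroid markers were detected in 0 of 8 cells, endoderm markers at 0 to 1 of 8 and neural crest markers at 0 to 2 of 4 in each cell, all at the floor. Of 5 proepicardial markers 0 to 1 were detected in each cell of both genotypes, with a summed log2 level of 7.97 to 9.40 in WT and 7.97 in KO. Wt1 read 474 and 473 in WT cells 2 and 3 and lay at the floor in the other 6 cells, and its part in the results was not tested. Sox17 was detected in 0 WT and 0 KO cells, so the arrays do not check the deletion.

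Entry into mitosis is driven by the kinase Cdk1 with A- and B-type cyclins, and the spindle is then built under the control of the Polo and Aurora kinases. Exit requires the anaphase-promoting complex, a ubiquitin ligase that works with the E2 enzyme Ube2c and the activator Cdc20 to destroy cyclin B. Most of these genes are transcribed in a wave late in the cycle, so that in a growing tissue such as the early myocardium neighbouring cells normally differ widely in them, depending on their phase.

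Fewer of the 33 genes were detected in KO than in WT cells. WT cells 1 to 4 had 10, 19, 14 and 27 of them, and KO cells 1 to 4 had 4, 13, 6 and 13. The groups overlapped, since 10 in WT cell 1 lies under the 13 of KO cells 2 and 4. The mean was 17.5 ± 7.33 (SD, n = 4) in WT and 9.0 ± 4.69 (SD, n = 4) in KO. The difference was -8.5 genes per cell, with overlapping ranges. Of all genes with a symbol, 22.0%, 25.2%, 30.8% and 29.0% were detected in WT cells 1 to 4, against 27.7%, 19.5%, 19.1% and 23.2% in KO cells 1 to 4. Detection as a whole was thus also lower on average in KO, at 22.4 ± 4.00% against 26.8 ± 3.94% (SD, n = 4), and its part in the counts of mitotic genes was not tested. KO cell 1, with 4 of the 33 genes, had more of all genes detected than WT cells 1 and 2, while KO cells 2 and 3 had the fewest of all cells.

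**Figure D1:**
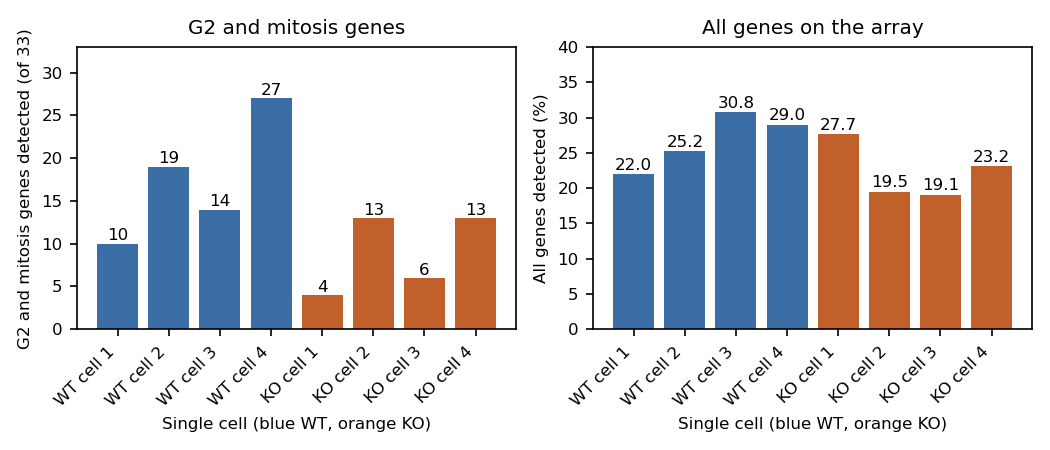
Bars give, for each single cell (blue WT, orange KO), the number of the 33 G2 and mitosis genes detected (left) and the percentage of all genes with a symbol detected (right). The counts on the left run from 10 to 27 in WT and from 4 to 13 in KO. On the right, KO cell 1, the lowest on the left, lies among the WT cells, and KO cells 2 and 3 are the lowest.

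Summed over cells, 70 of 132 possible detections were made in WT and 36 of 132 in KO. Of the 33 genes, 25 were detected in more WT than KO cells, as were 22.6% of all genes, and 1 gene (Cenpa) was detected in more KO than WT cells, as were 11.6% of all genes. Of the 25, 9 were detected in WT cells alone, against 12.5% of all genes, and 0 of the 33 were detected in KO cells alone, against 7.3% of all genes. The 9 genes were Plk1, Bub1, Cdc20, Cenpe, Kif11, Kif20b, Kif23, Kif2c and Nusap1. Since 29 of the 33 genes but only 12595 of all 24336 were detected in at least 1 cell, the shares were also taken over those 12595. There the share detected in more WT than KO cells was 43.7%, against 86.2% of the 29. The share detected in WT alone was 24.2%, against 31.0% of the 29. Ttk, Cenpf, Ckap2 and Dlgap5 were detected in 0 cells, which for a 60-base probe read after amplification of a single cell's cDNA gives no evidence that the transcript was missing.

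**Figure D2:**
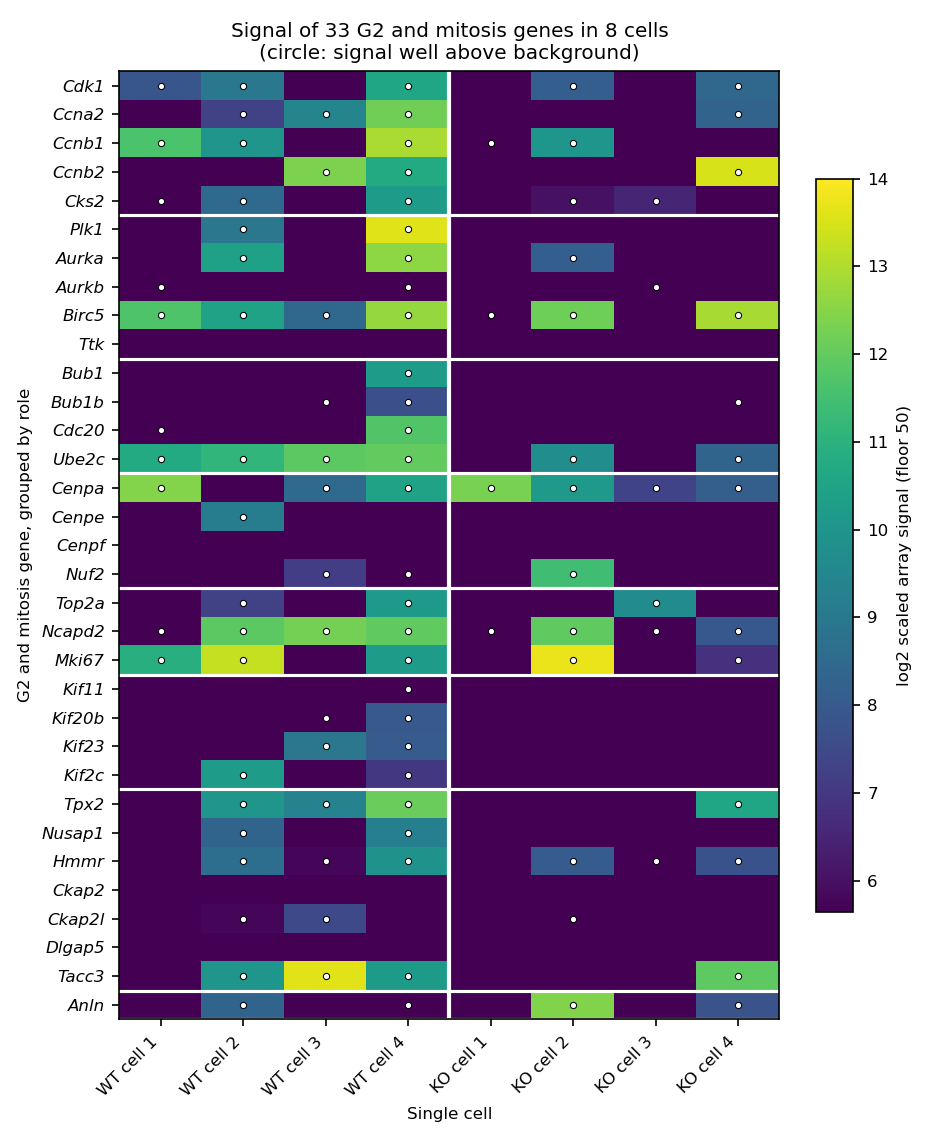
Each row is 1 of the 33 genes, grouped by role between white lines, and each column 1 cell, with WT cells left and KO cells right of the white line. Colour gives the log2 scaled array signal, with values under 50 set to 50, and a circle marks a spot well above background. WT cell 4 holds 27 circles and KO cell 1 holds 4.

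Levels are given below as scaled array signal, a brightness brought to a common median between arrays, with values under 50 set to 50. A spot can be well above background and still lie under 50 after scaling. Differences are of mean log2 signal, KO minus WT, over 4 cells each, and a gene was called lower or higher when they reached 5-fold. By this rule 7 of the 33 genes (21.2%) were lower in KO, against 3.15% of all genes and 6.09% of the genes detected in at least 1 cell. None was higher, against 0.826% and 1.6%. The 7 were Ube2c, Ccnb1, Plk1, Tacc3, Ncapd2, Tpx2 and Ccna2. The median difference was -1.14 over the 33 genes and 0.0 over all genes. Over the probes detected in all 8 cells it was 0.15, and under the other scalings it ran from 0.0 to 0.32, with the median of the 33 genes 1.20 to 1.34 below it. The count rests on single cells: it was 3 without WT cell 4, without KO cell 1 or without KO cell 3, and 9 without KO cell 4.

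**Figure D3:**
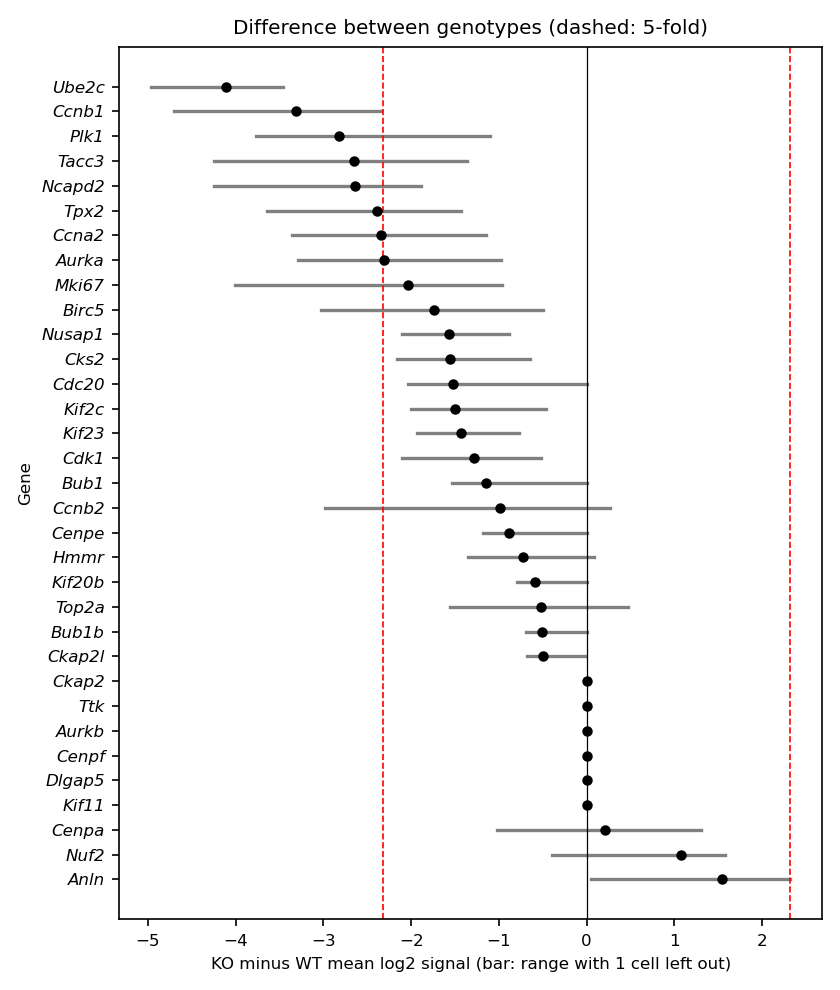
Points give the KO minus WT difference of mean log2 signal of each of the 33 genes, and bars its range when each of the 8 cells is left out in turn; dashed lines mark 5-fold. The whole bar lies past the 5-fold line for Ube2c and Ccnb1. No bar passes it on the right, where the points of Cenpa, Nuf2 and Anln lie. The bars of Cenpa and Nuf2 reach down to -1.02 and -0.40.

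Ube2c showed the largest difference of the 33. Its signal was 1740, 2266, 3815 and 4044 in WT cells 1 to 4. In KO cells 1 to 4 it was 50 (the floor), 853, 50 and 323. Every WT cell lay above every KO cell, which held for no other of the 33 genes and for 0.452% of all genes. The reverse held for 0 of the 33 and for 0.353% of all genes. Mean log2 signal was 11.45 ± 0.59 in WT and 7.34 ± 2.04 in KO (SD, n = 4), a difference of -4.11 or 17.2-fold. It stayed past 5-fold in 18 of 18 alternative settings, between -6.07 and -3.46. The probe lies on chromosome 2 at 164598016 to 164598075 (mm9), and the other probe of the gene read a difference of -3.42. Its partner Cdc20, which brings substrates to the same complex, was detected in WT cells 1 and 4 alone, at 50 and 3378.

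Among the cyclins, Ccnb1, the B-type cyclin that accompanies Cdk1 into mitosis, read 3159, 1031, 50 and 7811 in WT cells 1 to 4, against 50, 1038, 50 and 50 in KO cells 1 to 4. KO cell 2 thus read close to WT cell 2, and the other KO cells were at the floor. Mean log2 signal was 10.05 ± 3.17 in WT and 6.74 ± 2.19 in KO, a difference of -3.31 or 9.95-fold. That probe lies on chromosome 13 at 101548722 to 101548781 (mm9). The array's 2 other probes named Ccnb1 are placed on chromosome 7 and read -1.09 and 0.13, and with the mean of all 3 the difference was -1.43.

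Ccna2, the A-type cyclin of S phase and early mitosis, read 50, 158, 700 and 4696 in WT cells 1 to 4, against 314 in KO cell 4, with KO cells 1 to 3 at the floor. Its difference was -2.34 or 5.07-fold, between 8.65 ± 2.83 and 6.31 ± 1.33 log2. It fell short of 5-fold without WT cell 3 or 4 and without KO cell 1, 2 or 3. The same held with normexp background correction, quantile normalization or a floor of 100, so that it stayed past 5-fold in 10 of 18 settings. Ccnb2, another B-type cyclin, behaved otherwise: it was detected in WT cells 3 and 4, at 5233 and 1732, and in KO cell 4 at 11622, its highest value. Its difference was -0.99, and 0.27 without WT cell 3.

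Read through the chosen probes, the partners of the cyclins differed less than Ccnb1 and Ccna2 but more than Ccnb2. Cdk1 itself read 234, 509, 50 and 1506 in WT cells 1 to 4, against 50, 285, 50 and 353 in KO cells 1 to 4, a difference of -1.29. Its other probes lay at the floor in every cell, with differences of 0.0, and 1 of them was detected in 2 WT and 2 KO cells. With the mean of all probes the difference of Cdk1 was -0.43. Cks2, a small adaptor subunit of the same kinase, read at most 1210 in WT and 90.4 in KO, a difference of -1.56. In all, the kinase and its 4 partners gave 14 of 20 possible detections in WT and 8 of 20 in KO.

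Plk1, the Polo kinase of spindle poles and kinetochores, was detected in WT cells 2 and 4, at 502 and 12293, and in 0 KO cells. Because no KO cell measured it, its difference of -2.82 is set by the floor. The WT mean of 8.46 ± 3.76 log2, with WT cells 1 and 3 also at the floor, lay 7.05-fold above it. That difference rested largely on WT cell 4 and came to -1.10 on the log2 scale without that cell. It also fell short of 5-fold with a floor of 100 (-2.32) and with medians over cells (-1.66). Aurka, the Aurora kinase of the spindle poles, read 1386 and 6176 in WT cells 2 and 4 and 283 in KO cell 2, and 50 elsewhere, and at -2.31 or 4.96-fold it stood just short of the rule.

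Birc5 (survivin), a subunit of the chromosomal passenger complex, was among the few of these genes detected in all 4 WT cells. It read 3312, 1416, 355 and 6528 in WT cells 1 to 4, against 50, 4614, 50 and 7687 in KO cells 1 to 4. The KO cells split into 2 at the floor and 2 within or above the WT range, and the difference was -1.73. Its 2 other probes read -0.00 and -0.23, with KO cells 2 and 4 again the bright ones. Aurkb, the kinase of that complex, was detected in WT cells 1 and 4 and KO cell 3 but lay at the floor in all 8 cells.

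Tpx2 and Tacc3 are spindle proteins that act with Aurora A. Tpx2 read 50, 1014, 648 and 4370 in WT cells 1 to 4, against 1540 in KO cell 4, with the other KO cells at the floor. Its difference was -2.39 or 5.23-fold (9.27 ± 2.69 against 6.88 ± 2.47 log2), and its other probe read 1.09. It fell short of 5-fold without any 1 of WT cells 2 to 4 or KO cells 1 to 3. It also did so with normexp background correction, quantile normalization, a floor of 100 or the mean of all probes, and stayed past 5-fold in 8 of 18 settings. Tacc3 read 50, 1030, 12591 and 1173 in WT cells 1 to 4, against 3864 in KO cell 4, again the only KO cell above the floor. Its difference was -2.66 or 6.30-fold (9.87 ± 3.27 against 7.21 ± 3.14 log2). It fell short of 5-fold without WT cell 3 or any of KO cells 1 to 3, and with a floor of 100.

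Ncapd2, a subunit of the condensin complex that compacts mitotic chromosomes, was the only gene of the 33 detected in all 8 cells. It read 50, 3845, 4905 and 3953 in WT cells 1 to 4, against 50, 3959, 50 and 246 in KO cells 1 to 4. Both genotypes thus held cells at the floor and cells between 3845 and 4905, and the difference of -2.64 or 6.25-fold (10.44 ± 3.20 against 7.80 ± 2.97 log2) fell short of 5-fold without WT cell 2, 3 or 4 or KO cell 1 or 3. Mki67, which coats mitotic chromosomes and is widely used as a proliferation marker, read 1919, 9880, 50 and 1211 in WT cells 1 to 4, against 50, 13961, 50 and 115 in KO cells 1 to 4. The brightest of all 8 cells was KO cell 2, and the difference was -2.04 or 4.11-fold. Top2a, the topoisomerase that untangles sister chromatids, was detected in WT cells 2 and 4, at 154 and 1122, and in KO cell 3 at 815, a difference of -0.52.

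**Figure D4:**
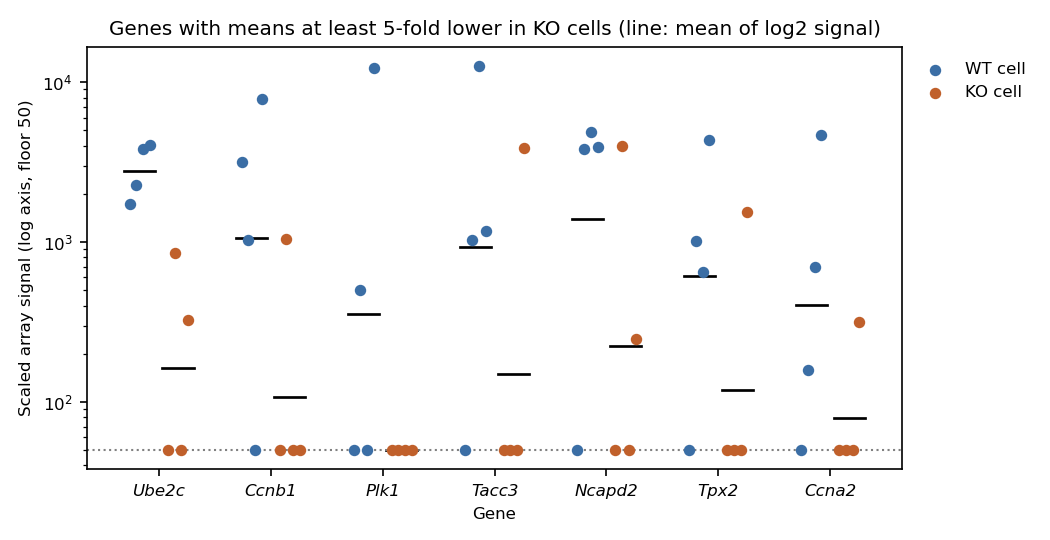
Scaled array signal (log axis, floor of 50 dotted) of the 7 genes whose means were at least 5-fold lower in KO; each point is 1 cell (blue WT, orange KO) and each line the mean of log2 signal. For Ube2c every WT point lies above every KO point, while for the other 6 genes 1 or more WT cells lie at the floor and the groups overlap there.

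The centromere and kinetochore genes had the smallest gap of the roles with more than 1 gene, at 6 of 16 detections in WT and 5 of 16 in KO. Cenpa, the histone variant that marks centromeres through the whole cycle, was detected in all 4 KO cells, at 5058, 1110, 159 and 289. In WT cells 1 to 4 it read 5642, 50, 362 and 1396, so that the ranges overlapped almost fully. The difference was 0.21, and -0.14 with scaling over all probes. With a cell left out it ran from -1.02 (without WT cell 2) to 1.31 (without WT cell 1). Nuf2, of the kinetochore's microtubule-binding complex, read 143 in WT cell 3, 50 in WT cell 4 and 2802 in KO cell 2, a difference of 1.07 that came to -0.40 without KO cell 2. Cenpe, a kinetochore motor, was detected in WT cell 2 alone, at 586.

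The spindle motors and checkpoint kinases were detected mostly in WT. The 4 motors Kif11, Kif20b, Kif23 and Kif2c gave 7 of 16 detections in WT and 0 of 16 in KO, and 4 of the 7 were in WT cell 4. All 4 were thus detected in WT alone, as were 12.5% of all genes and 24.2% of those detected in at least 1 cell. Their highest signals were 254 for Kif20b, 496 for Kif23, which acts at the midzone in cytokinesis, and 1227 for Kif2c, which depolymerises microtubules, while Kif11 stayed at the floor. Bub1, a checkpoint kinase, was detected in WT cell 4 alone, at 1190, and its relative Bub1b in WT cells 3 and 4 and in KO cell 4, with 207 in WT cell 4 as the only value above the floor. Nusap1, which bundles spindle microtubules, read 323 and 608 in WT cells 2 and 4. Ckap2l was detected in WT cells 2 and 3, at 55.3 and 181, and in KO cell 2 at the floor.

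Hmmr and Anln were detected in equal numbers of WT and KO cells. Hmmr, a microtubule-associated protein of spindle assembly, was detected in 3 cells of each genotype, at up to 986 in WT and 271 in KO. Anln (anillin), the scaffold of the cleavage furrow, was detected in 2 cells of each genotype, at 325 and 50 in WT cells 2 and 4 and at 5411 and 219 in KO cells 2 and 4. Its difference of 1.55 was the largest in that direction and came to 0.05 without KO cell 2.

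These 6 promoters are shown because transcription in G2 and mitosis is known to act through 2 short elements close to the start site, the cell cycle genes homology region (CHR), bound by the MuvB core of the DREAM and MYB-MuvB complexes, and the CCAAT box, bound by NF-Y. Of these, 4 belong to genes of the 5-fold group (Ube2c, Ccnb1, Ncapd2, Plk1), and Cdk1 and Cdc20 are their partners in the cell. Each line gives the 130 bases before the RefSeq start, 5′ to 3′ on the strand of the gene (build GRCm38.p6), with the motif letters in capitals. The CHR was searched as TTTGAA, which reads TTCAAA when it lies on the opposite strand, and as its variant TTCGAA, which is its own reverse complement. Other spellings of the CHR were not searched. The CCAAT box reads as ATTGG when it lies on the opposite strand. In the stretches shown, no base belongs to both a CHR and a CCAAT match.
Ube2c (chr2:164769799-164769928, plus strand): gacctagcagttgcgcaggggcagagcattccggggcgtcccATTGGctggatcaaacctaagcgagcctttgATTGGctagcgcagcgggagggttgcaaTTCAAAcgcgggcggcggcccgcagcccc
Ccnb1 (chr13:100786487-100786616, minus strand): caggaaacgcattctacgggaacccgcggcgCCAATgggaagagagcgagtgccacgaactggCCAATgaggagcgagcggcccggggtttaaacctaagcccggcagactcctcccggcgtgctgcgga
Ncapd2 (chr6:125191587-125191716, minus strand): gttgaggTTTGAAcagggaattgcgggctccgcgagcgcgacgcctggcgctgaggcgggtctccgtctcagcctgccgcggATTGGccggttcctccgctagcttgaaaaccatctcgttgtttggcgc
Plk1 (chr7:122159305-122159434, plus strand): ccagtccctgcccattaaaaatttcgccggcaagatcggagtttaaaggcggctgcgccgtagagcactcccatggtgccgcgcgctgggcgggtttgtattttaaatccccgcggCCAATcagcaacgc
Cdk1 (chr10:69352913-69353042, minus strand): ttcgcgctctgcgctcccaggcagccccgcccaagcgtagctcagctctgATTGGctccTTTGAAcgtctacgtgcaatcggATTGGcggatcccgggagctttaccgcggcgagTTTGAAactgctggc
Cdc20 (chr4:118437344-118437473, minus strand): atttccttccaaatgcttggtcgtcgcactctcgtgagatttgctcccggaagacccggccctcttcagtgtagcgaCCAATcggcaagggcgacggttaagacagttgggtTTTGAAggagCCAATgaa

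In Ube2c a CHR lies at 29 bases before the start, with ATTGG at 57 and 88 bases. Cdk1 holds TTTGAA at 15 and 71 bases and ATTGG at 48 and 80 bases. Cdc20 holds TTTGAA at 18 bases between CCAAT matches at 8 and 53 bases. Ccnb1 has CCAAT at 67 and 99 bases and no match to the CHR letters searched in the window. Plk1 has CCAAT at 14 bases with its TTTGAA at 31 bases past the start, outside the stretch shown. Ncapd2 has ATTGG at 48 bases and TTTGAA farther out, at 123 bases.

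RefSeq promoters of 300 bases (250 before and 50 from the start) were at hand for 29 of the 33 genes, all but Ccna2, Aurkb, Tpx2 and Dlgap5. A CHR match on either strand was found in 22 of the 29 (75.9%) and in 19.2% of 32851 promoters of the same length. CCAAT was found in 22 of the 29 (75.9%) and in 37.4% of all. Both were found in 19 of the 29 (65.5%) and in 7.52% of all. The genes with neither were Birc5, Nuf2, Nusap1 and Tacc3, so that Tacc3 of the 5-fold group lacks the letters in this window while Ttk, Cenpf and Ckap2, detected in 0 cells, carry both. A match is a description of the sequence and not a binding site.

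Genes that act together were next read within the same cell. Cdk1 and Ccnb1 were both detected in 4 cells (WT cells 1, 2 and 4 and KO cell 2), and Cdk1 and Ccna2 in 3 (WT cells 2 and 4 and KO cell 4). KO cell 2 thus held Cdk1 with Ccnb1, and KO cell 4 held Cdk1 with Ccna2 and Ccnb2. In KO cells 1 and 3 the chosen Cdk1 probe was not detected. The Aurora pairs Aurka with Tpx2 and Aurka with Tacc3 were each found in WT cells 2 and 4 alone. Cdc20 with Ube2c was found in WT cells 1 and 4, and Bub1 with Bub1b in WT cell 4.

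The detected genes of most cells were a subset of those of WT cell 4, which held 27 of the 29 genes detected in any cell. All genes of the 33 detected in WT cell 1 (10), KO cell 1 (4), KO cell 3 (6) and KO cell 4 (13) were also detected there. Between other cells the overlap was often smaller: WT cell 3 held 4 of the 10 genes of WT cell 1, and KO cell 4 held 3 of the 6 of KO cell 3. KO cells 2 and 4, with 13 genes each, shared 8 of them (61.5% of each). In KO cell 2 but not in KO cell 4 were Ccnb1, Cks2, Aurka, Nuf2 and Ckap2l, and in KO cell 4 but not in KO cell 2 were Ccna2, Ccnb2, Bub1b, Tpx2 and Tacc3. Detected in WT cell 4 and not in KO cell 1 were 23 of the 33 genes, against 10.1% of all genes, and the reverse held for 0 genes of the 33, against 8.78% of all genes. This pair of cells was chosen for the widest gap.

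The same cells stood in a similar order over another list of G2 and mitosis genes. Of 61 further genes of this kind on the array, 18, 29, 22 and 40 were detected in WT cells 1 to 4, against 8, 21, 10 and 16 in KO cells 1 to 4. WT cell 4 again held the most and KO cell 1 the fewest. By the 5-fold rule 9 of the 61 were lower and 0 higher, against 3.15% and 0.826% of all genes. Of genes detected in at least 1 cell, as 52 of the 61 were, the shares were 6.09% and 1.6%. The median difference was -0.75. In more WT than KO cells 37 of the 61 were detected, against 22.6% of all genes and 43.7% of those detected in at least 1 cell. Of the 9 lower genes, those detected in at least 4 cells were Knstrn (-4.64), Trip13 (-4.21), Cks1b (-3.82), Mad2l1 (-2.85) and Prc1 (-2.44). Prc1 lay at the floor in every KO cell. Knstrn is a kinetochore adaptor, Trip13 disassembles checkpoint complexes and Cks1b is the relative of Cks2. Mad2l1 acts in the spindle checkpoint and Prc1 at the spindle midzone. Spc25 and Cep55, like Knstrn, were detected in all 8 cells. After scaling, Spc25 lay at the floor in every cell and Cep55 in 5 of 8. Their differences of 0.0 and 0.12 are thus set by the floor.

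Genes of S phase, which precedes G2, ordered the cells otherwise. Of 38 genes, 18, 28, 28 and 22 were detected in WT cells 1 to 4, against 14, 15, 23 and 16 in KO cells 1 to 4. KO cell 3, with 6 of the 33 genes of G2 and mitosis, held more S phase genes than any other KO cell and more than WT cells 1 and 4. By the 5-fold rule 8 of the 38 were lower and 1 higher, against 3.15% and 0.826% of all genes. Of genes detected in at least 1 cell, as 34 of the 38 were, the shares were 6.09% and 1.6%. The median was -0.73. The lower ones were Rrm2 (-7.84), Mcm3 (-6.80), Fen1 (-5.38, with 0 KO cells measured), Chaf1b (-4.11), Uhrf1 (-3.41), Gmnn (-2.87), Rfc4 (-2.44) and Mcm10 (-3.23, with 0 KO cells measured). Chaf1b and Uhrf1 also lay at the floor in every KO cell, so that their differences are set by it. The higher one was Rfc3 (2.49), like Rfc4 a subunit of the clamp loader. Tyms (0.58), Gins3 (1.76), Lig1 (-1.58) and Ung (0.27) were detected in all 8 cells and stayed under 5-fold.

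**Figure D5:**
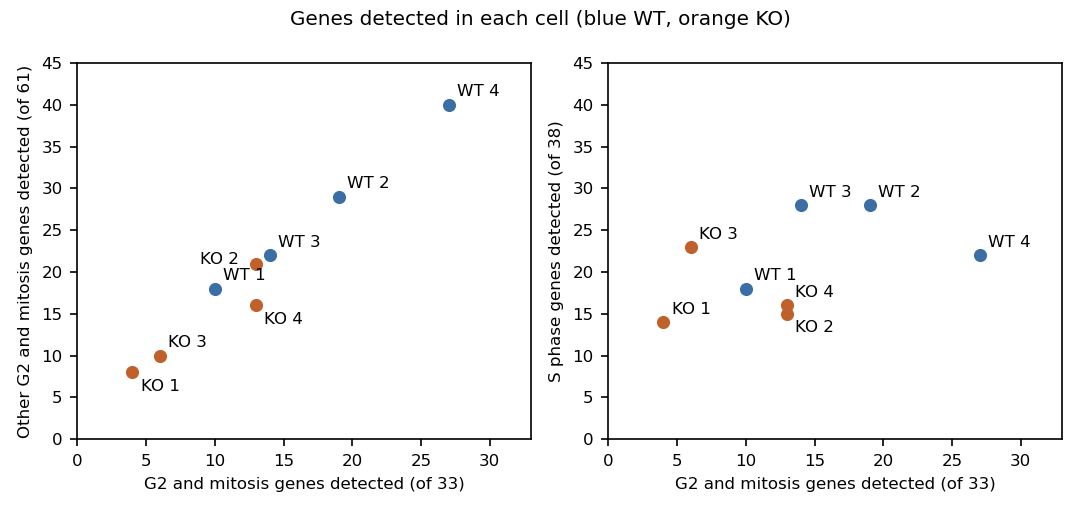
Each point is 1 cell (blue WT, orange KO), placed by the number of the 33 G2 and mitosis genes detected (horizontal) and by the number of 61 other G2 and mitosis genes (left) or 38 S phase genes (right) detected (vertical). WT cell 4 is at 27 and 40 and KO cell 1 at 4 and 8 on the left, while on the right KO cell 3 stands at 6 and 23.

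Of 19 listed regulators of these genes, 14 were detected in at least 1 cell, as were 12595 of all 24336 genes. In WT cells 1 to 4, 6, 8, 10 and 9 of them were detected, against 4, 4, 10 and 7 in KO cells 1 to 4. The median difference was -0.31. By the 5-fold rule 2 of the 19 were lower and 0 higher, against 3.15% and 0.826% of all genes. Of genes detected in at least 1 cell the shares were 6.09% and 1.6%. The 2 were Nfyc (-2.52), a subunit of NF-Y, and Rbbp4 (-2.47), a histone chaperone of the MuvB core. Mybl2, the MYB protein that joins the MuvB core at the CHR, was detected in all 8 cells with a difference of -2.01, as were Lin52 (-0.31) of that core and the repressor E2f7 (0.73). Foxm1, the forkhead factor of the same promoters, was detected in WT cell 4 alone, at 1376.

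Subunits and partners of the anaphase-promoting complex, whose genes are not of the late wave as a group, were detected at 10 to 13 of 17 in WT cells and 11 to 12 of 17 in KO cells, with a median difference of 0.0. By the 5-fold rule 2 of the 17 were lower and 1 higher, against 3.15% and 0.826% of all genes. Of genes detected in at least 1 cell the shares were 6.09% and 1.6%. Lower were the scaffold subunit Cdc16 (-4.86) and the E2 enzyme Ube2s (-3.97), which extends the ubiquitin chains begun with Ube2c, and higher was Anapc15 (2.53). Anapc2 (0.14), Anapc11 (1.34), Anapc13 (-1.38), Anapc16 (-2.14) and Cdc27 (-1.50) were detected in all 8 cells and stayed under 5-fold. Anapc16 lay at the floor in every KO cell. Ube2s read 11343, 871, 784 and 822 in WT cells 1 to 4, against 50, 50, 50 and 834 in KO cells 1 to 4. KO cell 4 therefore lay inside the WT range for Ube2s, where for Ube2c it lay below it.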

How the data were processed

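The authors deposited 1 Feature Extraction file per cell (Agilent Feature Extraction 12.0.2.2, per the file headers), whose processed signal is a linear intensity already background-subtracted by the scanner software. Per the study's methods, single-cell cDNA was primed on poly(A), amplified by PCR and transcribed from an added T3 promoter, so probes far from the 3′ end may read low, and scarce transcripts may drop out of any cell. The methods name the ventricle and the labels the heart tube as the source. Cell types were assigned by PCR of marker genes, values under 50 were set to 50, arrays were scaled to the 50th percentile, and each gene was then normalized across arrays. That last step was not repeated here.

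Control spots and outlier spots (146 to 220 per array) were left out and log2 signals averaged per probe, giving 55681 probes, of which 32469 carried a symbol distinct from the probe and accession names. No spot was saturated. Each array was shifted by -0.76 to 0.68 on the log2 scale to a common 50th percentile over the 5301 probes well above background in all 8 cells, and values under 50 were set to 50. Probe positions are mm9, per the file headers; exon and UTR annotation of that build was not used here. Scripts ran in Python 3.11.15 (pandas 2.3.3, numpy 2.4.6), with limma 3.58.1 for normexp. They were tested on simulated data with changes placed in bright genes only and no transcripts lost from single cells. That test does not show how the 5-fold rule behaves on sparsely detected genes.

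The 33 genes, the other lists and the rules were chosen with earlier results of these data known. Genes were named with values in every cell where they were detected in all 4 cells of a genotype or reached 5-fold, and from other lists where detected in at least 4 cells and 5-fold different, or in all 8 cells; other values were picked after they were seen. Alternatives covered detection flag, background correction, scaling, floor, probe choice, filter, fold and each cell left out. The number of arrays limits the precision.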

Additional observations from a re-analysis of the deposited data

Results flagged for a closer look

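Of 13 groups of 4 cells examined for a cell apart from the rest, 1 stood out, where chance gives about 1 in 20 groups. Ncapd2 was at 5.64 on the log2 scale, the floor, in WT cell 1, against 11.91 to 12.26 in the other 3 WT cells. The spot was well above background in that cell before scaling. Without WT cell 1 the difference of Ncapd2 between KO and WT was -4.25 in place of -2.64.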

How the results depend on the processing

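No gene past 5-fold and no count or summary changed direction, but 5 genes under 5-fold did: Ccnb2 was 0.27 without WT cell 3, Nuf2 -0.40 without KO cell 2, Top2a 0.47 and Hmmr 0.08 without WT cell 4, and Cenpa -0.14 with scaling over all probes, -0.04 with a floor of 100, -0.33 with medians over cells and -1.02, -0.07 and -0.70 without WT cell 2, WT cell 3 or KO cell 1. The count of genes at least 5-fold lower in KO, 7, was 17 with no floor, 3 with a floor of 100, 17 with a 2-fold rule, 1 with a 10-fold rule (Ube2c) and 1 among genes detected in all 8 cells, where Ncapd2 alone remained. It was 3 to 9 with a cell left out: 3 without WT cell 4, KO cell 1 or KO cell 3, and 9 without KO cell 4. It was 5 with normexp background correction or quantile normalization and 8 with the 75th percentile or with scaling over all probes. Genes at least 5-fold higher were 0, and 2 with a 2-fold rule. The median difference was -2.32 with no floor, -2.64 for the gene detected in all 8 cells, and leaving out a cell moved it between -1.45 and -0.52. The same step gave -11.0 to -5.33 for genes detected per cell and -1.51 to -0.67 for mean log2 signal of the 33 genes (-1.16). Other moves by over 1.5 times were -4.75 genes detected per cell with the flag for positive and significant signal, a mean log2 signal of -2.10 with no floor, and medians of -0.68 with medians over cells, -0.72 with the mean of all probes of a gene and -2.04 over genes detected in at least 4 cells. Floor and detection set the limits: most KO values lay at the floor, so differences understate or depend on it. No paired analysis was possible because no result came from a test and the cells share only a number.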
